A study of Homo sapiens with 6 samples.

Results

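The 47 genes described here are a fixed list of DNA replication and S-phase genes, chosen by name from what they do in the cell. Earlier results of these data were known when the list was chosen. All 47 are among the 15945 genes of the A375 count table and the 15429 genes of the PC9 table. Of these, 38 in A375 and 46 in PC9 averaged at least 10 counts per 1000000 counted molecules (CPM) over the populations of their line, and they are called measured below. The 9 members under that mean in A375 were ORC1, CDC45, E2F1, E2F8, CCNE1, CCNE2, CHAF1B, CDCA7 and WDR76, and the 1 in PC9 was UBR7. Each of those 9 had its highest level in the untreated A375 cells.

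The study followed 2 human cancer cell lines while they were adapted to a targeted drug. A375 is a melanoma line that carries BRAF-V600E, and it was kept untreated or taken stepwise up to 30, 60, 125, 250, 500 nM and 1, 2 and 4 µM of dabrafenib, which inhibits the mutant BRAF kinase. PC9, labelled EGFR-del, comes from a lung adenocarcinoma and was kept untreated or taken stepwise up to 8, 16, 32, 75, 150, 300, 600 nM and 1.2 µM of osimertinib, an EGFR inhibitor. A further PC9 population, the persisters, was exposed at once to 1.2 µM for 9 days. The cells of each line were tagged, pooled and read in single cells as unique molecular identifiers (UMIs, the counted molecules). Each population is 1 culture, so no difference between populations could be tested against the spread of cultures: the intervals given are 95% counting intervals, and no p-value is reported.

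The A375 table held 8505 cells, with 379 to 2011 cells and a median of 7337 to 9804 UMIs a cell per population. The PC9 table held 11258 cells, with 823 to 1410 cells and a median of 5776 to 7968 UMIs. The 125 nM A375 population was the smallest and shallowest of its line, and the persisters those of theirs. A375 cells had the melanoma genes SOX10 (29.1 to 211 CPM per population) and S100B (36.2 to 358 CPM), while the pigment gene MLANA stayed at or under 1.89 CPM. PC9 cells had the epithelial genes EPCAM (268.5 to 441 CPM) and KRT19 (1592 to 1888 CPM). CDH1 had 0.146 to 0.630 CPM in A375 and 74.2 to 125.3 CPM in PC9, and KRT8 39.6 to 78.8 and 1263 to 1686 CPM. PMEL, MITF and KRT18 did not separate the lines as sharply. PMEL had 1.32 to 4.42 CPM in A375 and 3.22 to 7.34 CPM in PC9, and MITF 73.4 to 207.5 and 33.55 to 83.5 CPM. KRT18 had 257 to 894.6 CPM in A375 and 2333 to 3451 CPM in PC9. Of the immune and endothelial markers, PTPRC and VWF were at or under 1.43 CPM, PECAM1 and LYZ at or under 4.34 CPM where they were in the table, and CD68, which many cell types express, lay between 5.92 and 30.4 CPM. CD3E and the erythroid genes HBB and HBA1 were in neither table. In A375 the fibroblast markers LUM and FAP reached 75.7 and 25.4 CPM among the doses, against their lowest levels of 6.69 and 1.77 CPM in untreated cells, and their part in the results was not tested. The authors also deposited a list of 5059 A375 and 4208 PC9 cells, under a name that holds g1, and the cells on it are called listed cells below.

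Before S phase, the origin recognition complex and CDC6 load the ring-shaped MCM2 to MCM7 helicase on DNA, a step called licensing. CDC45 and the GINS complex then switch the helicase on, and polymerases held by the PCNA clamp copy the strands from nucleotides that ribonucleotide reductase and thymidylate synthase help to supply. Most of these genes are transcribed by E2F factors as cells pass from G1 into S, so their messenger RNAs are widely read as a sign of cells in or near S phase.

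In A375, the members were lower in every dabrafenib-adapted population than in untreated cells. The summed level of the 47 members was 2948 CPM in untreated cells and 1443, 1649, 789.8, 1162, 1087, 1089, 938.3 and 1003 CPM from 30 nM to 4 µM. The counting interval was 758 to 823 CPM at 125 nM, the lowest of these sums, and 2925 to 2971 CPM for untreated cells. All 38 measured members were below untreated cells at all 8 doses, and for all 38 at all 8 doses the counting interval of the ratio lay below 1. The shares of all genes for which this held were not taken. At 30 nM 21 of the 38 were at least 2-fold lower, against 4.49% of the 9455 genes measured in this line, and at 60 nM 13 were, against 1.04%. At 125 nM the count was 36 against 5.93%, and at 250 nM 28 against 4.96%. It was 31 at each of 500 nM, 1 µM, 2 µM and 4 µM, against 6.06%, 8.00%, 9.10% and 8.25% of all genes. The median log2 ratio of the members, taken on log2(CPM + 1) throughout, was -1.02, -0.85, -2.01, -1.49, -1.37, -1.32, -1.66 and -1.58 from 30 nM to 4 µM, while the median of all genes lay between -0.19 and -0.05. In such sums over a population, fewer cells with these transcripts and fewer transcripts per cell cannot be told apart.

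**Figure D1:**
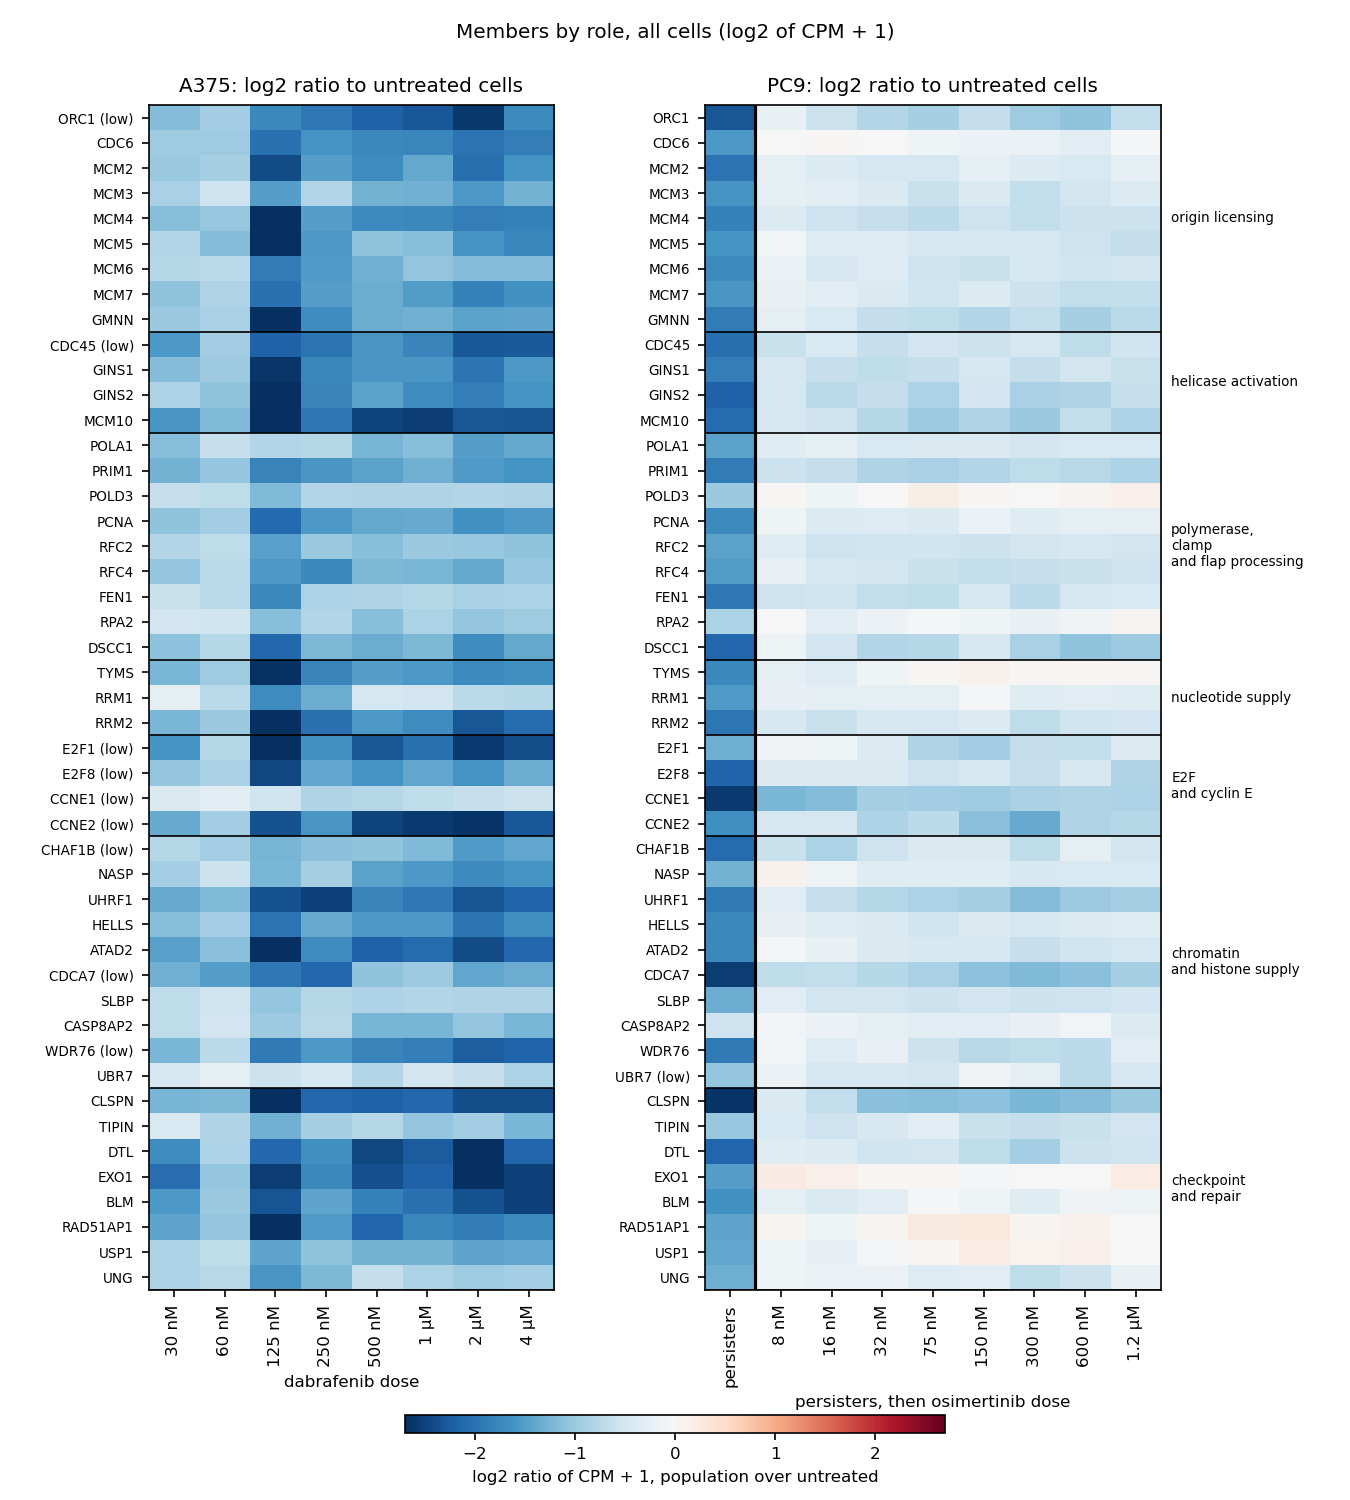
Log2 ratio of each member to untreated cells, in all cells, by role (rows) and population (columns), with blue for lower and red for higher. Members under the mean of 10 CPM in a line are marked low. Every A375 column is blue throughout, the PC9 persister column is as dark, and the PC9 dose columns are pale with a few members near or above 0.

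The members did not follow dose evenly. The 60 nM population had the smallest median difference and 125 nM the greatest, and 28 of the 38 measured members had their lowest level at 125 nM. The other 10 had it elsewhere: MCM3, POLA1, NASP, DTL and EXO1 at 2 µM, RFC4 and UHRF1 at 250 nM, UBR7 and BLM at 4 µM, and CASP8AP2 at 1 µM. How many of all genes were lowest at 125 nM was not counted, and that population was the smallest and shallowest of its line. POLA1, the catalytic subunit of the polymerase that starts new strands, had 85.0 CPM in untreated cells and 38.1, 54.9, 48.3, 49.5, 34.8, 37.5, 29.7 and 31.8 CPM along the doses. At 125 nM it was thus among the least reduced members, with a log2 ratio of -0.80. At 125 nM 8.71% of the cells had 20% or more mitochondrial UMIs and at 4 µM 10.6% did, against 0.796% of untreated cells. With these cells left out, the median log2 ratio of the members was -2.04 at 125 nM and -1.56 at 4 µM.

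At 4 µM the lowest ratios were those of genes that act at stalled or broken forks, of an activator of the helicase and of a reader of DNA methylation. BLM, a RecQ helicase that unwinds recombination intermediates, had 4.32 CPM at 4 µM against 29.8 CPM in untreated cells, 6.90-fold lower (4.86 to 10.1). EXO1, an exonuclease of mismatch and break repair, had 6.68 against 43.1 CPM, 6.46-fold lower (4.87 to 8.74). CLSPN, the mediator that relays the replication checkpoint to CHK1, had 17.8 against 97.5 CPM, 5.47-fold lower (4.60 to 6.56). MCM10, needed for the loaded helicase to start, had 7.07 against 39.9 CPM, 5.64-fold lower (4.28 to 7.57). UHRF1, which brings the maintenance methyltransferase to newly copied DNA, had 12.2 against 58.3 CPM, 4.79-fold lower (3.88 to 5.98). The intervals of these 5 ratios overlap in part, so their order is not resolved by the counts.

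The highest ratios at 4 µM were those of RRM1, POLD3, SLBP, FEN1 and UBR7, with log2 ratios of -0.77 to -0.86. RRM1, the large subunit of ribonucleotide reductase, had 35.7 CPM at 4 µM against 61.7 CPM in untreated cells, 1.73-fold lower (1.52 to 1.97). Its partner RRM2, whose amount changes with the cell cycle, had 19.25 against 84.7 CPM, a log2 ratio of -2.08. SLBP binds the stem-loop at the end of histone messenger RNAs, and it had 57.9 against 102.8 CPM. At 30 nM, RRM1 was again the least reduced member, at 52.2 against 61.7 CPM (log2 ratio -0.24), followed by TIPIN (-0.42), UBR7 (-0.46), RPA2 (-0.51) and FEN1 (-0.60). The lowest at 30 nM were EXO1 (-2.06), DTL (-1.67), MCM10 (-1.58), BLM (-1.56) and ATAD2 (-1.47), of which 3 are also among the 5 lowest at 4 µM. Both comparisons use the same untreated cells.

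Over the 8 doses, the measured A375 members with the lowest mean log2 ratio were MCM10 (-2.23), EXO1 (-2.21) and CLSPN (-2.14), and those with the highest, among measured members with a promoter sequence, were UBR7 (-0.57), SLBP (-0.79) and RRM1 (-0.81). Their promoters are shown because the members were lower together and E2F factors bind at the start of many of these genes. The sequences are from RefSeq (GRCh38.p14), from 250 bases before to 30 after the start of transcription, 5′ to 3′ on the strand of the gene. Capitals mark the letters searched on both strands: the E2F forms TTTCCCGC, TTTGGCGC, TTTCGCGC and TTTGCCGC, the CHR forms TTTGAA and TTCGAA found at many mitotic genes, and CCAAT. The windows lie at chr10:13161308-13161587 (MCM10, plus strand), chr1:241847954-241848233 (EXO1, plus strand, 1 of 2 starts), chr1:35769949-35770228 (CLSPN, minus strand), chr14:93207006-93207285 (UBR7, plus strand), chr4:1712290-1712569 (SLBP, minus strand) and chr11:4094435-4094714 (RRM1, plus strand).
MCM10: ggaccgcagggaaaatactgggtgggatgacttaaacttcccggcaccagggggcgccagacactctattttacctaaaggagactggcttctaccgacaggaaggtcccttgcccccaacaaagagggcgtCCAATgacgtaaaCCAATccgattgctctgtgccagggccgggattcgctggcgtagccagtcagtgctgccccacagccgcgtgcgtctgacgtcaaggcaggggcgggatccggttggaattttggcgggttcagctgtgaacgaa
EXO1: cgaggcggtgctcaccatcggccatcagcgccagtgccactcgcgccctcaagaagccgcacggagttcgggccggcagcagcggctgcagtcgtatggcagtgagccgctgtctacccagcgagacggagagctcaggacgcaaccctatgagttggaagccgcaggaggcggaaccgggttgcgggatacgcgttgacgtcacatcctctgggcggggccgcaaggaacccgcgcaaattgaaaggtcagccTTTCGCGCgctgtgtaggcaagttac
CLSPN: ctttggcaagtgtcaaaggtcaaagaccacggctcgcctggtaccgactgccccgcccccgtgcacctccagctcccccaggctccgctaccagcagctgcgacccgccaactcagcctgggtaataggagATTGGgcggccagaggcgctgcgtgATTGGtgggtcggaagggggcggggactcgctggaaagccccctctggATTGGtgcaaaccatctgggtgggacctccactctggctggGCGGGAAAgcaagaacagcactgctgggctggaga
UBR7: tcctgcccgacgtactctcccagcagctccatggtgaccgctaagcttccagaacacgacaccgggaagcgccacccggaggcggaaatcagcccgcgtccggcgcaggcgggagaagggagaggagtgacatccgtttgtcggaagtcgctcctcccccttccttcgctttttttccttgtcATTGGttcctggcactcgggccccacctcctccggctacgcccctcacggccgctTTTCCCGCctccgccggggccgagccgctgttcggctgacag
SLBP: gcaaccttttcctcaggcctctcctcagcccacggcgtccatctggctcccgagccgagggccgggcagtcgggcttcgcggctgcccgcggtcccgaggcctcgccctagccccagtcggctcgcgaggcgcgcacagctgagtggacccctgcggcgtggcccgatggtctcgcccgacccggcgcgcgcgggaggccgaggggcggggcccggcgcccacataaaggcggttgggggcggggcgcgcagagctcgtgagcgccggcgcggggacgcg
RRM1: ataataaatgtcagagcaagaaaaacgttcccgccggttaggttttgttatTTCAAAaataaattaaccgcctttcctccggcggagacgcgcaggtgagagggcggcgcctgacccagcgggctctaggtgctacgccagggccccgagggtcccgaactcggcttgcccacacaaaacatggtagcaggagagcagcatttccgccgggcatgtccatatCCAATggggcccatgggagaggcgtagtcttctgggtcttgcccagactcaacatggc

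Among the 3 lowest members, CLSPN and EXO1 hold an E2F form next to the start: CLSPN has TTTCCCGC on the opposite strand with its first printed base 5 bases before the start, and EXO1 has TTTCGCGC beginning at base 5 of the transcript. EXO1 has 2 starts, and the window with the most E2F forms was the one printed, so its form follows in part from that choice. MCM10 holds none of the 4 forms and has CCAAT 2 times. Of the 3 highest, UBR7 has TTTCCCGC from 12 bases before the start, RRM1 has CCAAT and TTTGAA, and SLBP holds none of the letters searched. The table had promoters for 38 of the 47 members, and 22 of these genes (57.9%) held an E2F form in the window of 300 bases, against 44.4% of 45 other replication genes, 3.99% of all 27305 genes and 7.49% of the 6608 genes measured in both lines. A gene was counted if any of its windows held a form. Taken by window, 45.1% of 51 member windows held an E2F form, against 31.75% of 63 for the other replication genes. Of all 35116 windows 3.315% did, and 5.397% of the 9838 of genes measured in both lines. CCAAT was in 73.7% of the members, 51.1% of the other replication genes, 70.45% of the G2 and mitosis genes and 39.7% of all genes. A CHR form was in 10.5% of the members, 77.3% of the 44 G2 and mitosis genes with a promoter, and 19.5% of all genes. No printed window held both an E2F and a CHR form. Within the members, the mean log2 ratio over the A375 doses had a median of -1.50 for the 20 measured members with an E2F form and -1.25 for the 12 without, and both groups spanned nearly the same range (-2.21 to -0.57 and -2.23 to -0.79).

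By role, MCM4, a helicase subunit and the licensing gene with the most UMIs in A375, had 121 CPM in untreated cells and 53.9, 59.0, 16.0, 42.6, 36.4, 35.5, 32.5 and 33.5 CPM along the doses. It was 2-fold lower at all 8 doses, while MCM3, another subunit of the same ring, was so at 5 (83.5 CPM in untreated cells, then 45.35, 56.5, 29.3, 47.8, 34.1, 33.6, 27.6 and 33.9). CDC6, the loader, was 2-fold lower at 6 doses, and GMNN, which blocks a second round of licensing, at 7. All 8 measured licensing genes were 2-fold lower at 125 nM and at each dose from 500 nM to 4 µM. ORC1, under the measured mean, had 1.825 to 8.00 CPM at the doses, against 16.1 CPM in untreated cells.

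The 3 measured genes of helicase activation were 2-fold lower at every dose except 30 nM, where GINS2 was not. GINS2, a subunit of the GINS complex, had 52.4 CPM in untreated A375 cells and 29.1, 24.3, 5.79, 14.5, 18.6, 15.6, 13.6 and 16.5 CPM along the doses. Among the 9 genes of the polymerase, clamp and flap group, the range was wider. PCNA, the sliding clamp, had 136 CPM in untreated cells and 63.7, 70.7, 31.0, 46.3, 51.2, 52.5, 43.1 and 46.2 CPM along the doses, 2-fold lower at 7 of 8. POLD3, a subunit of polymerase delta, and FEN1, which trims the flaps of lagging-strand fragments, were 2-fold lower at 1 dose each, 125 nM. The nucleotide gene TYMS, thymidylate synthase, had 187 CPM in untreated cells and 79.3, 96.6, 28.6, 53.95, 66.1, 63.9, 56.1 and 58.4 CPM along the doses. RRM2 was 2-fold lower at all 8 doses and RRM1 at 2.

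The E2F and cyclin E genes were all under the measured mean in A375. E2F1, an activator of S-phase genes, had 2.38 to 15.4 CPM at the doses, against 26.9 CPM in untreated cells. CCNE2, a cyclin E gene, had 2.05 to 8.88 CPM at the doses against 18.0 CPM in untreated cells, and CCNE1, the other one, had 7.44 to 11.2 CPM against 13.8 CPM. Of the chromatin and histone group, NASP, a histone chaperone, had 305.9 CPM in untreated cells and 161, 202.5, 129, 163, 111, 105, 92.5 and 99.4 CPM along the doses. UHRF1 and ATAD2 were 2-fold lower at all 8 doses, SLBP at 1 and UBR7 at none. In the checkpoint and repair group, USP1, which removes ubiquitin from PCNA, had 118.5 CPM in untreated cells and 66.3, 73.8, 43.6, 55.6, 48.7, 48.2, 43.7 and 43.9 CPM along the doses. Of the 38 measured members, 11 were 2-fold lower at every dose and 1, UBR7, at none. How many of all genes were 2-fold lower at every dose was not counted.

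**Figure D2:**
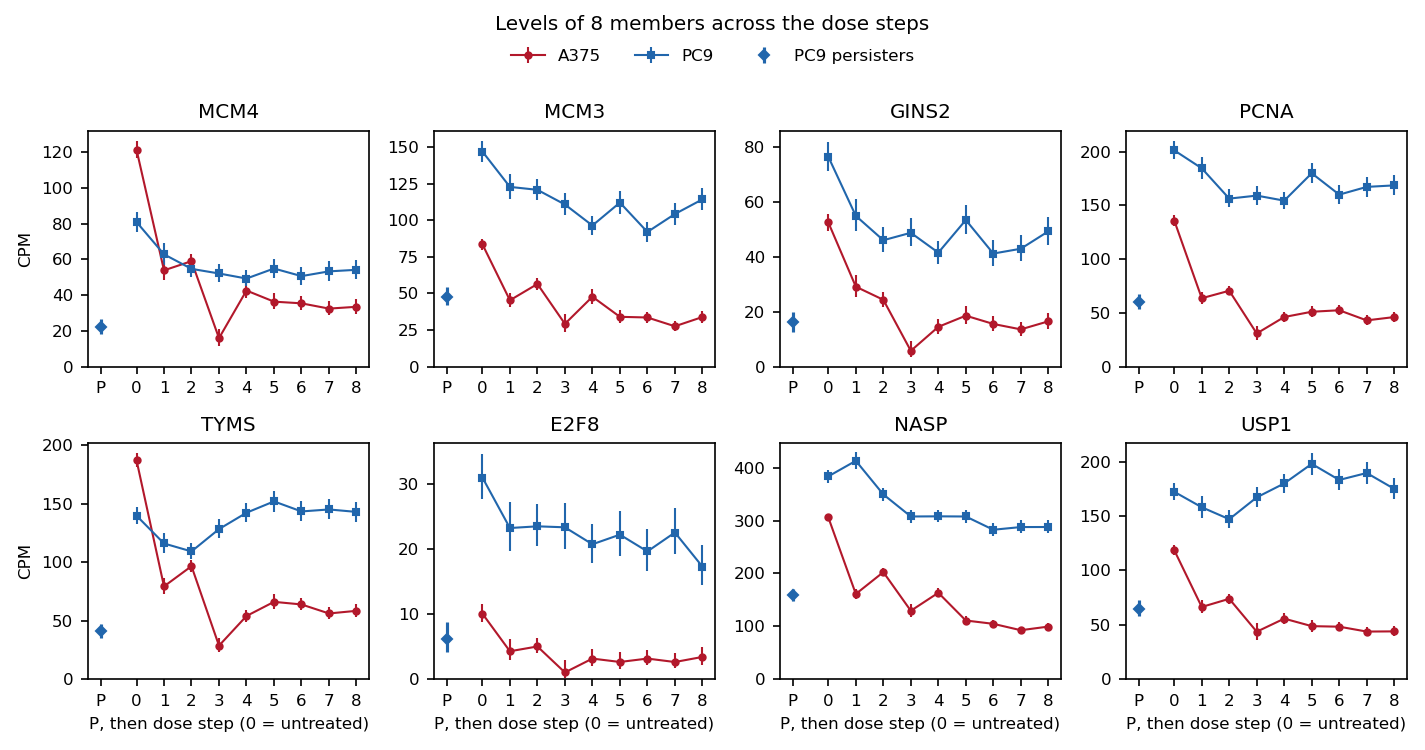
CPM (vertical axes) of the measured member with the most UMIs in each role and line, with 95% counting intervals. Shown are the untreated population (step 0), the 8 dose steps of each line and the PC9 persisters (P, at the left). E2F8 was chosen in PC9 only, since no gene of its role was measured in A375. In A375 (red) every gene is highest at step 0. In PC9 (blue) TYMS and USP1 are at or above their untreated level from step 4 on, while the persister points are the lowest of each PC9 series.

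In PC9, the osimertinib-adapted populations were much closer to untreated cells. The summed level was 3600 CPM in untreated cells and 3127, 2810, 2710, 2671, 2781, 2549, 2648 and 2702 CPM from 8 nM to 1.2 µM. Of the 46 measured members, 38 were below untreated cells at every dose, but none was 2-fold lower at every dose and 38 were so at no dose. The shares of all genes for these counts over the doses were not taken. The members 2-fold lower numbered 1, 1, 1, 2 and 4 along the doses from 8 to 150 nM, against 1.37%, 1.58%, 1.94%, 2.52% and 2.87% of the 9166 genes measured in PC9. They numbered 6 at 300 nM, 5 at 600 nM and 2 at 1.2 µM, against 3.23%, 3.27% and 3.31%. From 8 nM to 75 nM and at 1.2 µM these counts are near the background. With the mean of each cell's CPM in place of the summed UMIs, they were 4, 6 and 5 at 32 nM, 75 nM and 1.2 µM. The median log2 ratio was -0.26, -0.39, -0.42, -0.53, -0.45, -0.63, -0.54 and -0.49 from 8 nM to 1.2 µM, with the median of all genes between 0.01 and 0.05. By the counting interval of the ratio, 31 to 39 of the 46 were below 1 at each dose, and the share of all genes was not taken.

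The member lowest most often in adapted PC9 cells was CLSPN, which was 2-fold lower at 6 of the 8 doses. It had 168 CPM in untreated cells and 129, 105, 76.0, 75.2, 77.9, 70.3, 73.4 and 83.1 CPM along the doses. CCNE1, the cyclin that drives entry into S phase, was 2-fold lower at 3 doses, among them the lowest: it had 28.15 CPM in untreated cells and 11.5, 11.9, 14.7, 14.3, 13.8, 14.9, 15.5 and 15.4 CPM along the doses. At 8 nM it was 2.46-fold lower (1.90 to 3.21), and CDCA7, CHAF1B, CDC45 and PRIM1 followed with log2 ratios of -0.68 to -0.59. At 1.2 µM the lowest were CLSPN (2.02-fold lower, 1.84 to 2.22), DSCC1 (2.08-fold lower, 1.62 to 2.69), UHRF1 (1.89-fold), CDCA7 (1.885-fold) and PRIM1 (1.825-fold). CDCA7, a partner of the remodeller HELLS, was 2-fold lower at 3 doses, and DSCC1, a subunit of an alternative clamp loader, at 2.

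A group of 8 members had at least 1 adapted PC9 population at or above the untreated level: EXO1, RAD51AP1, USP1, TYMS, POLD3, CDC6, RPA2 and NASP. EXO1 had 25.9 CPM in untreated cells and 30.4, 28.4, 27.1, 26.8, 24.9, 25.5, 25.7 and 29.9 CPM along the doses. USP1 had 172 CPM in untreated cells and 158, 147, 167, 179.9, 198, 183, 189.5 and 175 CPM along the doses. RAD51AP1 had 66.6 CPM in untreated cells and 70.0, 60.8, 70.4, 79.1, 81.6, 70.45, 71.9 and 65.8 CPM along the doses. TYMS had 139.8 CPM in untreated cells and 116, 109, 128, 142, 152, 143, 145 and 143 CPM. The counting interval lay above 1 for NASP at 8 nM, for POLD3 and RAD51AP1 at 75 nM, for TYMS, RAD51AP1 and USP1 at 150 nM and for USP1 at 600 nM, and no member was 2-fold higher at any dose. EXO1 and RAD51AP1 were 2-fold lower at all 8 dabrafenib doses in A375.

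All 7 role groups had medians below 0 at every dose in adapted PC9 cells. NASP, the chromatin gene with the most UMIs, had 384 CPM in untreated cells and 413, 349.6, 308, 308, 308, 283, 288 and 288 CPM along the doses. MCM3 had 147 CPM in untreated cells and 123, 121, 111, 96.35, 112, 91.9, 104 and 114 CPM, and PCNA 201 CPM and 185, 156, 159, 154.5, 180.0, 160.1, 167 and 169 CPM. The licensing median was -0.20 at 8 nM and -0.59 at 300 nM, its lowest, and the helicase activation median ranged from -0.76 to -0.48. GINS2 had 76.3 CPM in untreated cells and 54.8, 46.0, 48.7, 41.5, 53.3, 41.1, 42.9 and 49.2 CPM. E2F8, a repressor of E2F targets, had 31.0 CPM in untreated cells and 23.2, 23.5, 23.3, 20.7, 22.2, 19.6, 22.5 and 17.3 CPM.

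The PC9 persisters differed from the adapted cells of the same drug concentration. The summed level was 1134 CPM in persisters, against 2702 CPM in 1.2 µM adapted cells and 3600 CPM in untreated cells. Against untreated cells, 44 of the 46 measured members were 2-fold lower in persisters, against 9.56% of all genes measured, with a median log2 ratio of -1.73. Against the 1.2 µM adapted cells 38 of 46 were 2-fold lower, against 4.78% of all genes, with a median of -1.26. All 46 had their lowest level in persisters among the 10 PC9 populations. How many of all genes were lowest in persisters, the smallest and shallowest PC9 population, was not counted. The persister and adapted ratios use the same untreated cells.

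CLSPN had 25.9 CPM in persisters against 168 CPM in untreated cells, 6.49-fold lower (5.42 to 7.84). CCNE1 had 3.87 against 28.15 CPM, 7.27-fold lower (4.57 to 12.25), from 19 UMIs in persisters. CDCA7 had 6.93 against 45.9 CPM, 6.62-fold lower (4.67 to 9.67). ORC1, the large subunit of the origin recognition complex, had 3.26 against 20.2 CPM, 6.19-fold lower (3.73 to 11.0), and GINS2 16.1 against 76.3 CPM, 4.74-fold lower (3.76 to 6.05). Each of these 5 comes from a different role group. The highest were CASP8AP2, a factor of histone gene transcription (23.8 against 35.35 CPM, 1.48-fold lower, 1.20 to 1.84), and RPA2, a subunit of the single-strand binding protein (16.3 against 30.4 CPM), followed by POLD3 (2.03-fold lower), TIPIN (-1.02) and NASP (-1.27). The members that adapted PC9 cells kept near the untreated level were 2-fold lower in persisters, apart from RPA2: TYMS had 40.95 against 139.8 CPM, USP1 64.8 against 172 CPM and EXO1 8.56 against 25.9 CPM. CASP8AP2 was the only measured member whose counting interval included 1 between persisters and 1.2 µM cells (23.8 against 27.3 CPM).

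**Figure D3:**
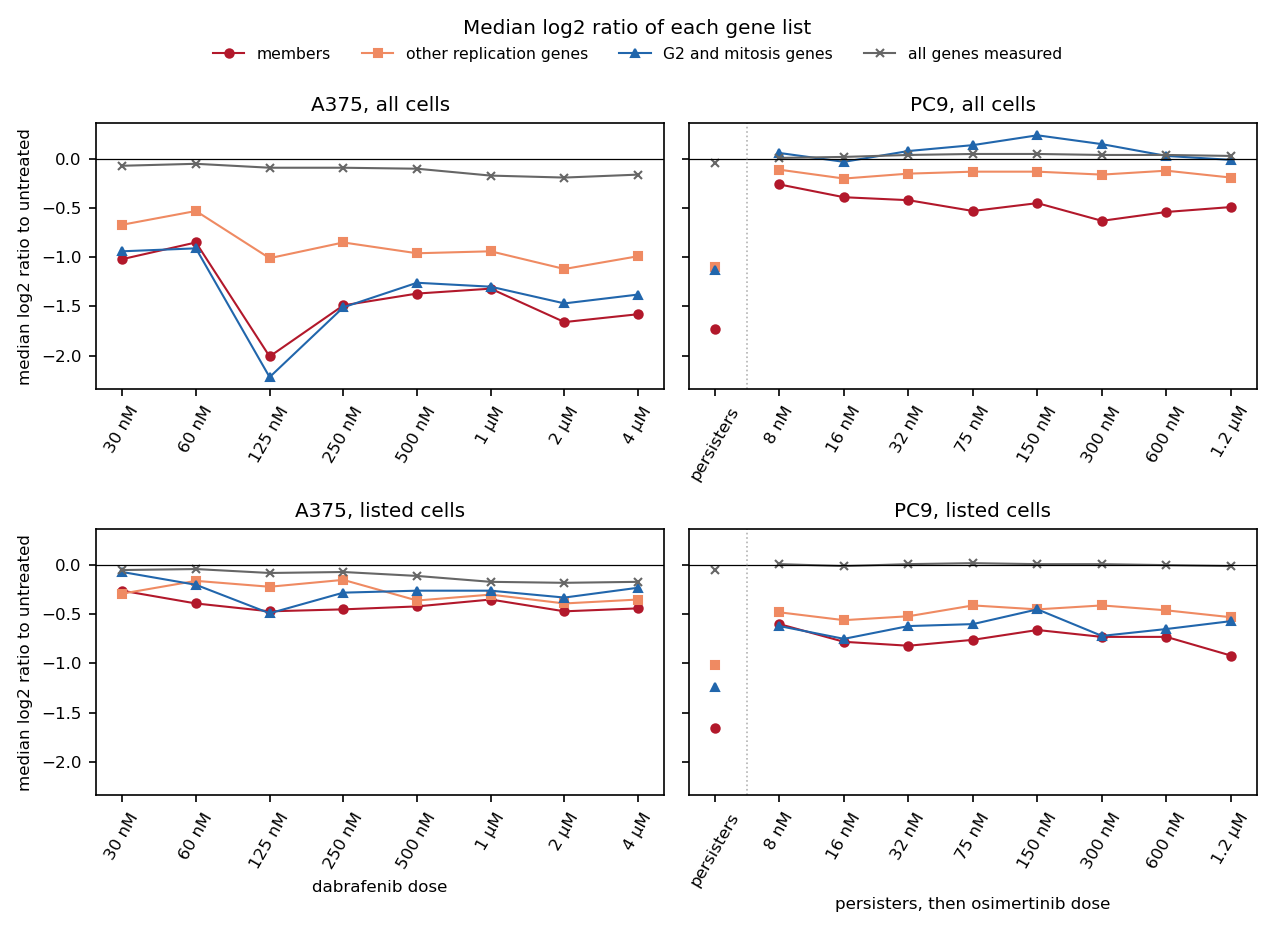
Median log2 ratio to untreated cells (vertical axes) of the members, of other replication genes, of G2 and mitosis genes and of all genes measured, by population, in all cells (top) and listed cells (bottom). In all A375 cells the members and the G2 and mitosis genes lie together well below all genes, whereas in all cells of the PC9 doses the members lie at -0.26 to -0.63 and the G2 and mitosis genes at -0.03 to 0.24.

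A second list of 56 replication genes outside the 47, among them other subunits of the same complexes, gave smaller differences. In A375 it had 44 measured genes. Of these, 22 were 2-fold lower at 4 µM, against 8.25% of all genes, and 12 at 30 nM, against 4.49%. The medians were -0.99 and -0.67. In PC9 it had 51, of which 31 were 2-fold lower in persisters, against 9.56% of all genes. At 1.2 µM 1 was (CDC25A, a phosphatase that activates CDK2, at -1.65), against 3.31%. The medians were -1.10 in persisters and -0.19 at 1.2 µM. The 51 measured genes of G2 and mitosis, a standard list of 54, had medians from -2.22 to -0.91 in A375 along with the members. At 4 µM 41 were 2-fold lower, against 8.25% of all genes. In adapted PC9 cells their medians lay between -0.03 and 0.24 and none was 2-fold lower at any dose, while the members' medians were all below 0. Their summed level in PC9 was 5928 CPM in untreated cells and 6072, 5688, 6202, 6550, 6978, 6493, 6072 and 5843 CPM along the doses. In persisters it was 2661 CPM, with 35 of 51 genes 2-fold lower, against 9.56% of all genes, and a median of -1.13.

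The number of members seen per cell gives the same comparison cell by cell. Every cell was reduced at random to 4000 UMIs so that depth was equal. Cells under that number, 4.45% to 15.8% of a population at the A375 doses and 2.98% of untreated cells, and 21.3% of persisters, 9.575% to 14.3% at the PC9 doses and 6.08% of untreated cells, were left out. In A375, 89.5% of untreated cells had 3 or more members detected (88.1 to 90.9, 1951 cells), and at the doses 56.55%, 61.5%, 41.1%, 49.0%, 47.15%, 51.8%, 43.65% and 48.2% did. Cells with 10 or more members were 43.9% of untreated cells and 12.6%, 17.9%, 2.19%, 7.83%, 6.69%, 6.74%, 3.81% and 5.12% at the doses. In PC9, 97.25% of untreated cells had 3 or more members (96.2 to 98.1, 1235 cells), and at the doses 87.85%, 84.8%, 83.8%, 86.3%, 89.25%, 84.1%, 84.3% and 83.6%. In persisters it was 44.4% (40.6 to 48.4, 648 cells). Cells with 10 or more members were 61.8% of untreated PC9 cells and 44.8%, 39.4%, 37.5%, 36.8%, 38.6%, 32.6%, 35.4% and 35.4% at the doses, against 8.18% of persisters. Thinned to 2000 UMIs, cells with 10 or more members were 2.02% of persisters, 10.4% at 1.2 µM and 14.0% at 8 nM (11.9 to 16.4), against 15.2% of untreated PC9 cells (13.2 to 17.3), so that the intervals at 8 nM and in untreated cells overlap at that depth. In A375 they were 1.32% at 4 µM against 14.7% of untreated cells. Without thinning, 3 or more members were seen in 76.0% of cells at 4 µM against 97.6% of untreated A375 cells, and in 56.1% of persisters and 86.9% of cells at 1.2 µM against 97.6% of untreated PC9 cells. For 10 or more members the unthinned shares were 22.8% at 4 µM against 72.35% of untreated A375 cells, and 13.0% in persisters and 52.7% at 1.2 µM against 85.25% of untreated PC9 cells. A share of cells with 3 members does not by itself mark S phase, since stray RNA in a droplet also gives UMIs. Each pool holds a single line, so no cell type that lacks these genes was present to measure that background.

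Cells with no member at all were 4.975% to 9.645% of adapted A375 cells against 1.18% of untreated ones. In PC9 they were 10.5% of persisters and 1.15% to 2.47% of adapted cells, against 0.162% of untreated cells. The cells with 10 or more members were deeper before thinning than the rest in the adapted A375 populations (medians of 11385 to 14865 UMIs, against 7983 to 10151 in cells under 10). The same held in untreated A375 cells (10296 against 9394), in persisters (8506 against 6169) and at every PC9 dose (medians of 6870 to 7705 UMIs, against 6197 to 7215), but not in untreated PC9 cells (8071 against 8449). Whether depth or pairs of cells in a droplet take part in these shares was not tested beyond thinning. Leaving out cells over 2 times the median UMIs gave 4.81% in place of 5.12% at 4 µM and 8.21% in place of 8.18% in persisters. Of the cells with 10 or more members, most also had 10 or more of the G2 and mitosis genes. In untreated PC9 cells 568 had both, 195 the members only, 367 the G2 and mitosis genes only and 105 neither. There, 10 or more G2 and mitosis genes were no more frequent in cells with 10 or more members than in the rest. In untreated A375 cells these numbers were 696, 160, 499 and 596. Cells with 10 or more members and under 10 G2 and mitosis genes were 1.12% at 4 µM against 8.20% of untreated cells in A375, and 2.16% of persisters and 6.515% at 1.2 µM against 15.8% of untreated cells in PC9.

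**Figure D4:**
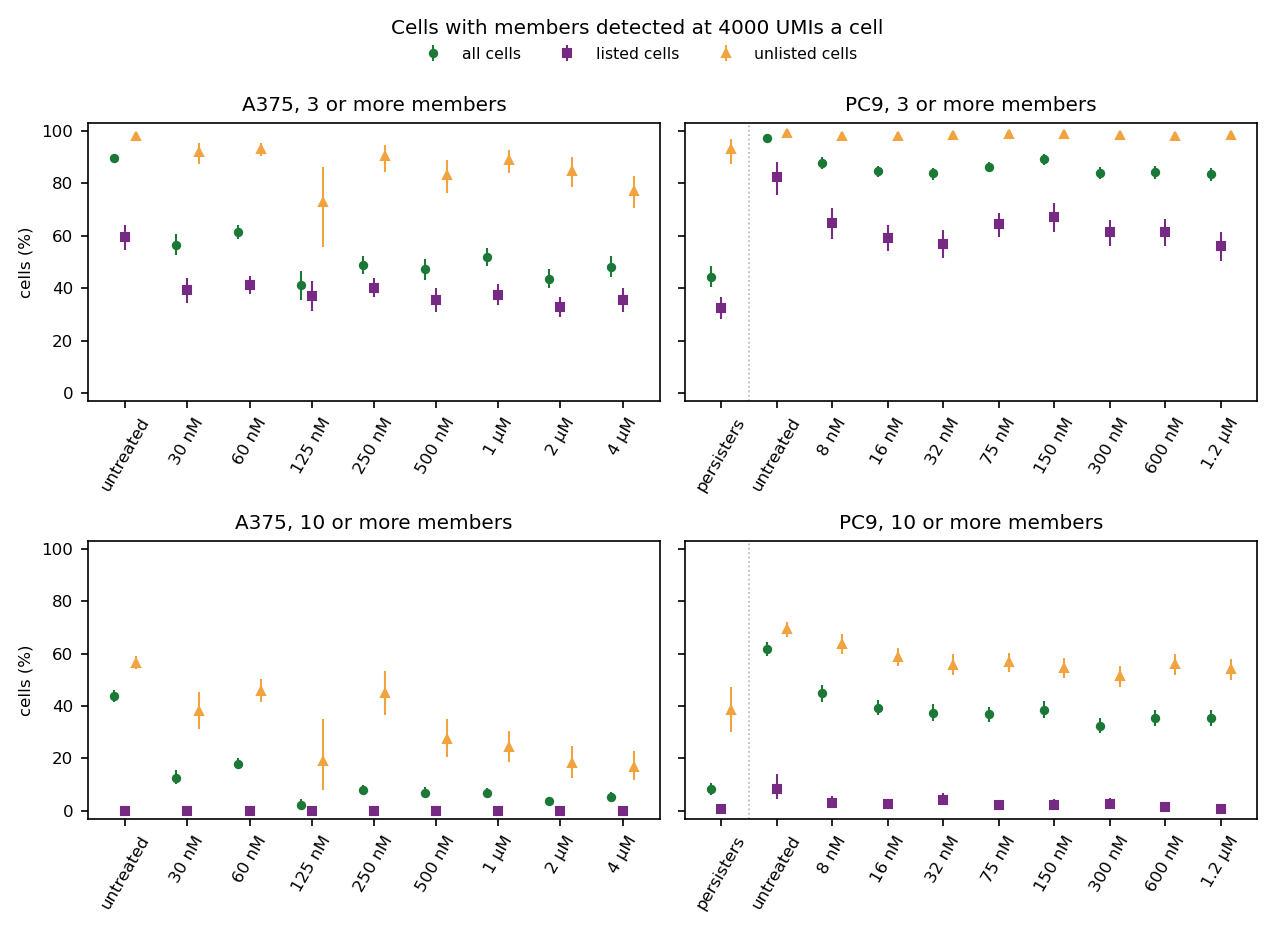
Percent of cells (vertical axes) with 3 or more members (top) and 10 or more members (bottom) detected after every cell was reduced to 4000 UMIs, in all, listed and unlisted cells of each population, with 95% exact binomial counting intervals. Listed A375 cells have no cell with 10 or more members, and listed cells lie below unlisted cells in every population.

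Cells on the authors' list carried far fewer of these transcripts than cells outside it. Listed cells were 62.4% to 81.2% of the adapted A375 populations against 22.0% of untreated cells, and 81.8% of persisters and 30.95% to 39.9% of the adapted PC9 populations against 12.85% of untreated cells. Their summed member level was 541 to 649 CPM at the A375 doses against 838 CPM in untreated cells, and 593 CPM in persisters and 989 to 1151 CPM at the PC9 doses against 1694 CPM in untreated cells. How cells came on the list is not given in the sources used here. Cell cycle genes may have been used, so levels of listed against unlisted cells are a description. The same holds for shares and ratios between populations within listed cells. Thinned to 4000 UMIs, 0 of 433 listed A375 cells at 4 µM had 10 or more members, and 0 of 436 listed untreated cells did. A count of 3 would be 0.693% and 0.688% of these cells, and the exact 95% intervals reach 0.848% and 0.8425%. The counts of 0 depend on the thinning. Not thinned, 5.275% of 455 listed cells at 4 µM had 10 or more members (3.41 to 7.75). In listed untreated A375 cells 14.03% of 442 did (10.9 to 17.6). In thinned PC9 cells 0.579% of 518 listed persisters and 0.592% of 338 listed cells at 1.2 µM had 10 or more, against 8.44% of 154 listed untreated cells.

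Within listed cells, the A375 doses were closer to untreated cells than in all cells. Whether this follows from how the listed cells were chosen was not tested. At 30 nM 4 of the 38 members were 2-fold lower, against 4.90% of all genes, and at 4 µM 14 were, against 9.06%, with medians of -0.26 and -0.44. The counting interval of the ratio included 1 for 28 of the 38 at 30 nM and for 21 at 4 µM. These members were called measured in all cells, and some had few UMIs in listed cells. On log2(CPM + 1) TYMS had the lowest ratio at 4 µM (-1.56), with 21.4 CPM against 65.1 CPM in untreated cells, 3.04-fold lower (2.41 to 3.88). By the ratio of CPM alone, BLM, MCM10, RRM2 and GINS2 were lower still, from 2 to 13 UMIs each at 4 µM. TYMS was at 17.9 to 32.4 CPM in the listed cells of all 8 doses. MCM7, a helicase subunit, had 8.60 against 25.0 CPM, 2.91-fold lower (2.00 to 4.31). NASP had 167.5 CPM in listed untreated cells and 103.2, 127.5, 114, 127, 77.8, 71.3, 64.7 and 71.25 CPM along the doses. SLBP had 43.2 CPM at 30 nM, its lowest, and 46.8 CPM at 4 µM in listed cells against 45.3 CPM in listed untreated cells, and its interval included 1 at all 8 doses. POLA1 at 125 nM and 250 nM and POLD3 at 2 µM were higher than in listed untreated cells beyond counting error.

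In listed PC9 cells the doses differed more from untreated cells than in all cells. At 8 nM 12 of the 46 members were 2-fold lower, against 3.61% of all genes, and at 1.2 µM 23 were, against 6.71%, with medians of -0.60 and -0.92. The listed untreated PC9 cells numbered 169, so each of these ratios rests on few UMIs in untreated cells. DTL, the substrate receptor that marks licensing factors for destruction, had 3.94 CPM in listed cells at 1.2 µM against 30.1 CPM in listed untreated cells, 7.635-fold lower (3.59 to 18.1) from 9 and 34 UMIs. CLSPN had 11.8 against 51.3 CPM, 4.34-fold lower (2.705 to 7.13), and MCM7 26.25 against 84.9 CPM, 3.23-fold lower (2.32 to 4.54). In listed persisters 39 of 46 members were 2-fold lower than in listed untreated cells, against 10.1% of all genes, with a median of -1.66. Against listed 1.2 µM cells 14 were, against 3.51%, with a median of -0.80. PCNA had 25.7 CPM in listed persisters, against 48.6 CPM in listed 1.2 µM cells and 65.4 CPM in listed untreated cells.

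Unlisted cells held 56.97% to 79.2% of the members' UMIs at 7 of the A375 doses and 37.8% at 125 nM, against 94.5% in untreated cells, and 59.8% in persisters and 85.9% to 89.7% at the PC9 doses against 94.96% in untreated cells. Their summed member level also differed. In A375 it was 3452 CPM in unlisted untreated cells and 2483, 2770, 1813, 2999, 1940, 2072, 1915 and 1677 CPM along the doses, so that from 500 nM on the unlisted cells were themselves at 2072 CPM or less. In PC9 it was 2930 CPM in unlisted persisters and 3327 to 3891 CPM at the doses, against 3828 CPM in unlisted untreated cells. Among unlisted cells, 16.7% had 10 or more members at 4 µM against 56.5% in untreated A375 cells, and 38.5% in persisters and 54.05% at 1.2 µM against 69.4% in untreated PC9 cells.

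**Figure D5:**
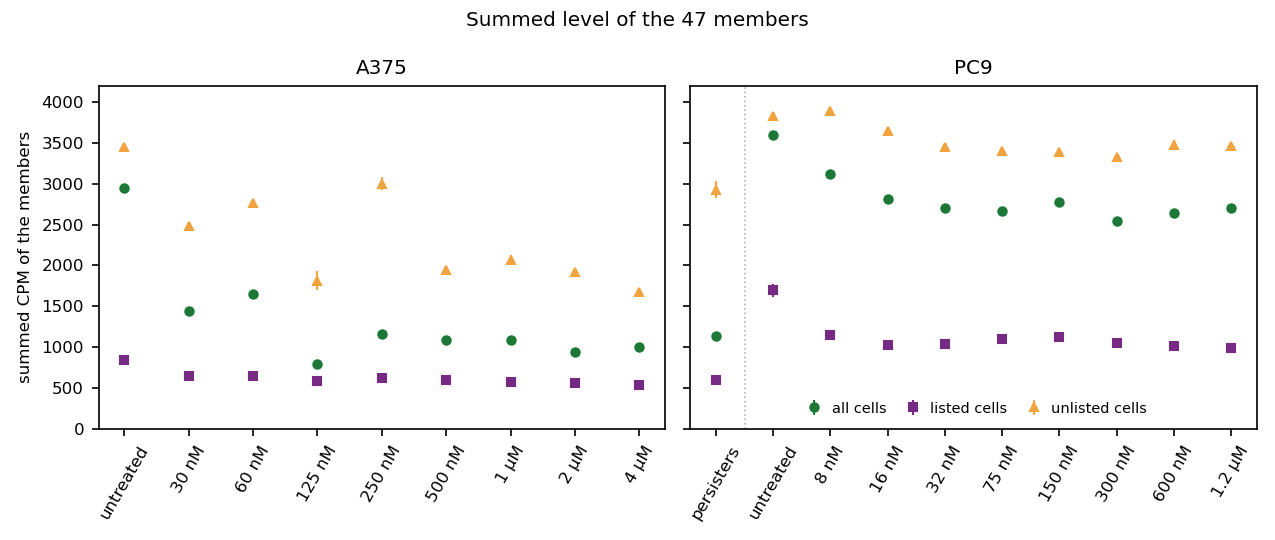
Summed CPM of the 47 members (vertical axis) in all, listed and unlisted cells of each population, with exact Poisson counting intervals that are mostly smaller than the points. Adapted PC9 cells keep 2549 to 3127 CPM in all cells, whereas the persisters are at 1134 CPM and the A375 doses at 789.8 to 1649 CPM.

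Between the clusters of listed cells in the authors' tables, the summed member level ranged from 513 to 849 CPM in A375 and from 584 to 1786 CPM in PC9. The highest in each line was cluster 0, of which 87.1% in A375 and 95.4% in PC9 were untreated cells. In PC9, cluster 3, of which the most frequent population, 75 nM, made up 18.5%, had 1377 CPM, cluster 2 had 1024 CPM and cluster 4 had 761 CPM. Cluster 1, 83.4% persisters, had 584 CPM. The clusters were made from these same cells, so these levels are a description.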

How the data were processed

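The cells of each line were tagged, pooled and sequenced as 10x Genomics 3′ libraries, per the labels' protocols, while Cell Ranger 7.0.0 and the build GRCh38 are named, without a role, in the submitters' processing notes. The deposited tables hold UMI counts per gene and cell, with the population in the cell name, and the authors' filters are not given in the sources used here. The authors' tables of listed cells give each cell's total UMI count and percent of mitochondrial UMIs, and both matched the count tables in all 5059 and 4208 listed cells. A375 cells whose names hold T05 were taken as the 500 nM population, the only label left for them. The 2 sequencing runs of the A375 pool cannot be told apart in the cell names. No cell barcode was in more than 1 population of a line, and 27 occurred in both lines. All deposited cells were used, and no doublet caller was run.

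UMIs were summed per population and scaled to CPM, so that a total sets every level, and ratios were taken on log2(CPM + 1). Folds are ratios of CPM with 95% exact binomial intervals, summed levels have exact Poisson intervals, and shares of cells have exact Clopper-Pearson intervals. All of these cover counting error only. The limit beside a count of 0 stands for 3 counts. The calculation was tested on simulated data. Genes were measured at a mean of 10 CPM, and a 2-fold difference is a size, not a test. The members and gene lists were chosen with earlier results of these data known. Genes were named by rule: per main comparison (30 nM and 4 µM in A375, 8 nM, 1.2 µM and persisters in PC9) the 5 lowest and 5 highest measured members, and per role the measured member with the most UMIs. Other named members, among them the PC9 members near the untreated level, were chosen after their values were seen. Promoters and motifs came from RefSeq. Alternatives were other cells, totals, filters, a pseudocount of 5, a 3-fold threshold and thinning to 2000 UMIs. Python 3.11.15, pandas 2.3.3, numpy 2.4.6, scipy 1.17.1, matplotlib 3.10.9, R 4.3.3 and edgeR 4.0.16 (for its TMM factors only) were used.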

Additional observations from a re-analysis of the deposited data

How the results depend on the processing

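All median log2 ratios of the members stayed below 0 under every alternative. Single members lay on the other side in listed cells: in A375 POLD3 was above untreated cells at 8 doses, UBR7 at 7 and FEN1 at 6, and in PC9 UNG was above at 7 and CCNE2 at 6, all of them below at all 8 doses in all cells. Of these, only POLD3 at 2 µM had a counting interval above 1, and the intervals at all other doses included 1. Listed untreated PC9 cells held 2 UMIs of CCNE2 and 16 of UNG. Leaving out cells with 20% or more mitochondrial UMIs or over 2 times the median UMIs, taking totals without mitochondrial and ribosomal protein genes, dropping the CPM filter, or asking for 10 CPM and 20 UMIs in the higher population kept all 18 counts within 1.5 times and all 18 medians within the counting interval. For the share of cells with 10 or more members, leaving out these cells was chosen after seeing the data. It left the 19 shares within their intervals, as did the same step for 3 or more members. A pseudocount of 5 gave medians of -1.27 at 250 nM and -1.52 in persisters, and the counts do not use a pseudocount. With TMM factors the counts were 2 at 32 nM and 4 at 75 nM in PC9, and the rest were within 1.5 times. The mean of per-cell CPM gave 21 members at 60 nM (median -1.07) and a median of -1.65 at 500 nM in A375, and 4, 6 and 5 members at 32 nM, 75 nM and 1.2 µM in PC9. A 3-fold threshold gave 4, 0, 16, 13, 13 and 20 members at 30 nM, 60 nM, 250 nM, 500 nM, 1 µM and 4 µM in A375, 0 at every PC9 dose, and 12 for persisters against 1.2 µM. A mean of 50 CPM or more left only PCNA, FEN1, TYMS, NASP, SLBP and USP1 in A375. Of these, 2, 0, 6, 3, 4, 4, 4 and 4 were 2-fold lower from 30 nM to 4 µM, so all of them at 125 nM. Their medians were -0.70, -1.59 and -0.99 at 60, 125 and 250 nM. In PC9 the counts were 0 at 8 and 16 nM and 1 at each dose from 75 nM to 1.2 µM. All 19 members that passed were 2-fold lower in persisters against untreated cells, and 15 against 1.2 µM cells. The share of all genes was not taken under this filter or at the 3-fold threshold. In listed cells only, the A375 counts were 4, 5, 13, 9, 6, 8, 11 and 14 from 30 nM to 4 µM, with medians of -0.26, -0.39, -0.47, -0.45, -0.42, -0.35, -0.47 and -0.44. The PC9 counts were 12, 16, 19, 17, 15, 15, 19 and 23 from 8 nM to 1.2 µM, with medians of -0.60, -0.78, -0.82 and -0.76 from 8 to 75 nM, -0.73 at 600 nM and -0.92 at 1.2 µM. Of all genes measured, 0.582% to 9.28% at the A375 doses and 3.61% to 6.71% at the PC9 doses were 2-fold lower in listed cells. Persisters against 1.2 µM gave 14 members, against 3.51% of all genes, and a median of -0.80. The cause was not tested. Cells with 3 or more members were 35.3% at 4 µM and 59.4% of untreated cells in listed A375 cells, and 32.2% in persisters, 55.9% at 1.2 µM and 82.5% of untreated cells in listed PC9 cells. Thinned to 2000 UMIs, they were 17.9% at 4 µM and 72.85% of untreated A375 cells, and 20.8% in persisters, 62.9% at 1.2 µM and 89.0% of untreated PC9 cells. Not thinned, they were 76.0% at 4 µM and 97.6% of untreated A375 cells, and 56.1% in persisters and 86.9% at 1.2 µM in PC9. These shares depend on depth by construction. No paired analysis was possible because the 2 runs cannot be told apart in the cell names and no result comes from a test. With 1 culture a population, no difference can be set against the spread of cultures.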

Other observations

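Among the measured replication genes outside the 47 members, a few lay on the other side of untreated cells; they were singled out after their values were seen. RRM2B, an alternative small subunit of ribonucleotide reductase that p53 can induce, had 20.7 CPM in untreated A375 cells and 37.1, 25.9, 24.5, 27.5, 34.2, 34.6, 34.7 and 30.0 CPM from 30 nM to 4 µM. It was above untreated cells beyond counting error at 7 of the 8 doses, all but 125 nM, and 1.45-fold higher at 4 µM (1.23 to 1.705). It was the only gene of that list with such an interval at 4 µM. In PC9 it had 8.76 to 12.7 CPM at the doses and 10.4 CPM in persisters, against 10.6 CPM in untreated cells, within counting error in all 9 comparisons.

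RBL2, the pocket protein p130 that holds E2F targets down in resting cells, had 27.2 CPM in untreated PC9 cells and 39.95, 43.6, 41.5, 46.5, 41.1, 45.6, 46.7 and 47.04 CPM from 8 nM to 1.2 µM. It had 54.8 CPM in persisters, 2.015-fold higher than in untreated cells (1.70 to 2.39). Between persisters and 1.2 µM cells the interval included 1 (54.8 against 47.04 CPM). In A375 it had 36.0 to 48.3 CPM at the doses, against 39.8 CPM in untreated cells, and the interval lay above 1 at 125 nM only.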
